A study of Mus musculus with 24 samples.

Results

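Genes induced by interferon were followed in skeletal muscle and heart of mice lacking dystrophin, the sialic acid enzyme Cmah, or both. The set is a list of 39 names of genes known to respond to interferon. A gene was represented by the brightest probe set, in each tissue, to which the platform annotation gives its symbol alone, and 37 of the 39 were measured in this way, out of 18193 genes in the series. Isg15, a ubiquitin-like modifier, lies on a probe set shared with Gm9706 and was not analysed here, and Ifi44 had no probe set of its own symbol. Mx2 was measured but lay below the filter on low values in every array of both tissues, with means of 3.64 in gastrocnemius and 4.03 in heart on the log2 scale. The other 36 members passed the filter and were tested in each tissue. The filter asked for at least 3 of 12 arrays above a level set per tissue. In gastrocnemius only the dystrophin-deficient arrays reached that number for Dhx58, Oas3 and Cxcl10, and in heart only the dystrophin-positive arrays did for Oas3 and Cxcl10. Such a member passed through the arrays where it is high, so counts and medians over the tested members are given as descriptions. All levels are log2 microarray intensities, so a difference of 1 is a doubling, and levels of different genes are not compared with each other because probe sets differ in brightness.

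The study set 4 genotypes beside each other, with 3 mice in each. Wild-type (WT) and Cmah KO mice carry the strain label C57BL/6J, and mdx and Cmah KO mdx mice the label C57BL6/10J, so strain and loss of dystrophin cannot be told apart. Cmah makes the sialic acid Neu5Gc, which humans lack, and the Cmah KO mouse shares that lack through a mutation like the human one. The mdx mouse, a germline mutant of the dystrophin gene Dmd, is a model of Duchenne muscular dystrophy, and its disease is milder than the human one. All 12 mice were male and 2 months old, and each gave 1 array of gastrocnemius, a calf muscle, and 1 of heart, from 25 ng of total RNA amplified and labelled with biotin. The comparisons ask what loss of dystrophin did to these genes, with and without Cmah, what loss of Cmah did, and whether heart and skeletal muscle differed.

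Interferons are secreted proteins that cells release when they sense foreign or misplaced nucleic acid. Type I interferons bind the receptor Ifnar1 and Ifnar2, whose kinases Jak1 and Tyk2 activate transcription factors, among them Stat2, which joins Irf9 in a complex that binds the interferon-stimulated response element (ISRE) in promoters. The induced genes sense or degrade viral RNA, block viral particles, display antigen and call in leukocytes, and in muscle they are known from inflammatory myopathies and from infiltrated dystrophic fibres.

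The promoters of 5 members are shown because their intensities carry the main result: Oas1a, Oasl1, Oasl2 and Rsad2 rose with dystrophin loss, and Cxcl10 is among the members whose response was compared between tissues. Each line gives the 250 bases before the transcription start, 5′ to 3′ on the gene's own strand, from RefSeq on build GRCm38.p6, with matches to the ISRE core in capitals. The core searched was GAAANNGAAA on either strand, which reads TTTCNNTTTC on the other strand.
Oas1a, chr5:120907526-120907775, minus strand: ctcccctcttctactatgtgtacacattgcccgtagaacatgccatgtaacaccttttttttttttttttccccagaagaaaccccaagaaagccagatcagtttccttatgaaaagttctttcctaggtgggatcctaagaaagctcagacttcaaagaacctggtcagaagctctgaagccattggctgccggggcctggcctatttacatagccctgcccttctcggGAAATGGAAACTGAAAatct
Oasl1, chr5:114922990-114923239, plus strand: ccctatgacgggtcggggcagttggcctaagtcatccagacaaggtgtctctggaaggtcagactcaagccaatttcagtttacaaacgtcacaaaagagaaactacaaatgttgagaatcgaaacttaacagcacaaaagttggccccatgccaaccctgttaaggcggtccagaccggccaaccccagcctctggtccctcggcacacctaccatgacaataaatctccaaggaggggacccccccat
Oasl2, chr5:114896684-114896933, plus strand: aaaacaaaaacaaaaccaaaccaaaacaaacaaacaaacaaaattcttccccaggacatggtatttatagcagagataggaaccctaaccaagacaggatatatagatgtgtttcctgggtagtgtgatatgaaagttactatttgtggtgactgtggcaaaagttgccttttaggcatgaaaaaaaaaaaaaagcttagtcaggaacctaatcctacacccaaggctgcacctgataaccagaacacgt
Rsad2, chr12:26456453-26456702, minus strand: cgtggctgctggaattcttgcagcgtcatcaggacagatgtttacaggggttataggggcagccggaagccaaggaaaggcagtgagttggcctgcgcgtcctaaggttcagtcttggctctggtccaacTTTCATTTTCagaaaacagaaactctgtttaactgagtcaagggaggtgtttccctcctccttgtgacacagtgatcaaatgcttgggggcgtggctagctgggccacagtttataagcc
Cxcl10, chr5:92348890-92349139, minus strand: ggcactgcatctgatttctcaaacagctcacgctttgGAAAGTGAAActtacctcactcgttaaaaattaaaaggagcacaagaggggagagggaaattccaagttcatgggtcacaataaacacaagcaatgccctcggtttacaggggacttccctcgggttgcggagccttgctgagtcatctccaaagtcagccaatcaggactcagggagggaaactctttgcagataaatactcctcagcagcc

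Oas1a held 2 overlapping matches that began 20 and 14 bases before the start, Rsad2 held 1 that began 120 bases before it, and Cxcl10 held 1 that began 213 bases before it. Oasl1 and Oasl2, which lie next to each other on chromosome 5, held no match in this window. Over windows of 250 bases before to 50 bases after the start, 17 of the 30 members with a window in the table (56.67%) held the ISRE core, against 3.993% of 27025 genes. The motif TTCNNNGAA, known as GAS, was held by 9 of the 30 (30%), against 9.554% of all genes; it reads the same on both strands. The members are known interferon targets, so these shares describe how the list was made. Oas2 and 8 further members had no window in the table.

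Several arrays stood apart. In 4 animals, 1 of each genotype (gastrocnemius WT replicate 3 and replicate 1 of the other genotypes), the gastrocnemius arrays had upper-quartile intensities of 210 to 232, against 242 to 264 in the other 8, and log2 differences between 3′ and 5′ Gapdh control probes of 0.76 to 1.02, against 0.36 to 0.71; these are called the low-intensity animals. In heart, Cmah KO replicate 3 and Cmah KO mdx replicate 2 had Gapdh differences of 4.29 and 4.43, against 0.44 to 1.60 in the other 10 heart arrays. Among those 10, the hearts of the low-intensity animals had 0.98 to 1.60 and the rest 0.44 to 0.54. Dmd was 9.99 to 10.26 in dystrophin-positive gastrocnemius and 7.54 to 8.59 in the dystrophin-deficient groups. In heart it was 9.89 to 10.07 in WT and 8.16 to 9.12 in the deficient groups, and 8.01 to 10.09 in Cmah KO, whose lowest value overlaps the deficient groups. Cmah ranges overlapped between groups, and where its probe set lies relative to the mutated part is not given in the sources used here, so it checks nothing. The 8 skeletal fibre markers summed to intensities of 73162 to 96433 in gastrocnemius, and the 7 cardiomyocyte markers to 32894 to 65116 in heart. Skeletal fibre markers also summed to 521 to 19568 in heart.

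In gastrocnemius, 5 interferon response genes rose with loss of dystrophin, 4 of them Oas or Oas-like genes. Over both Cmah backgrounds, 6 dystrophin-deficient arrays against 6 dystrophin-positive, Oas1a, Oas2, Oasl1, Oasl2 and Rsad2 passed an adjusted p of 0.05 (limma, Benjamini-Hochberg over all probe sets tested). That is 5 of 36, where 1.20% of the 13224 genes tested passed in either direction. At an unadjusted p below 0.05 there were 20 members, all higher, against 12.5% of all genes. All 36 members had a difference above 0, with a median of 0.82 against 0.02 for all genes; 14 exceeded 1, and 2, Ifi203 and Psmb9, lay below 0.3. Groups of 6 did not overlap for 3 members, Oas1a, Oas2 and Irf9, against 1.73% of all genes. In whole muscle, more cells of a type and more RNA per cell cannot be told apart.

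**Figure D1:**
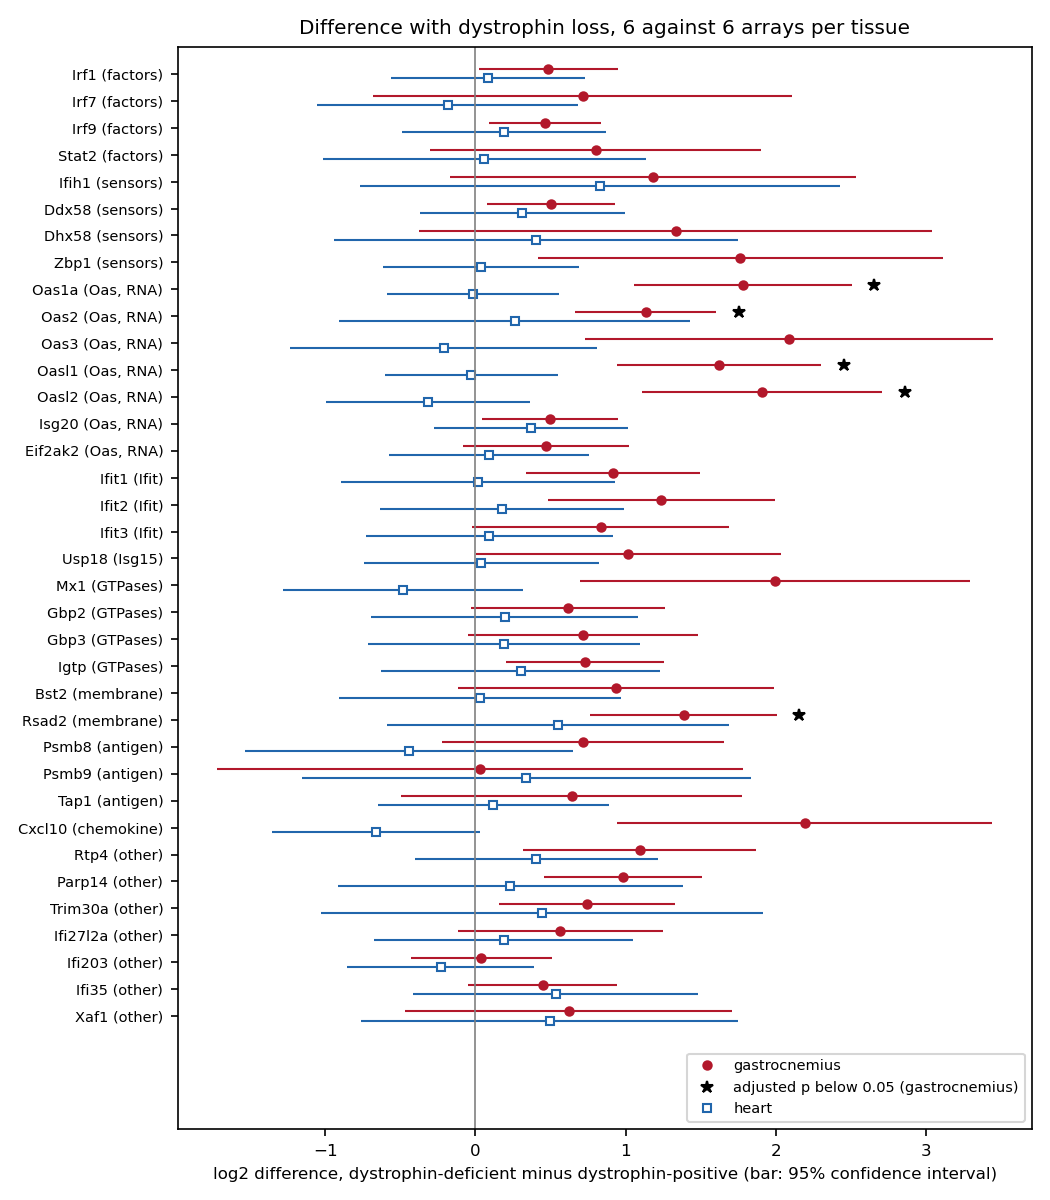
Log2 difference between dystrophin-deficient and dystrophin-positive arrays for each tested member, in gastrocnemius (filled red) and heart (open blue), with 95% confidence intervals from 6 against 6 arrays per tissue. Stars mark the 5 members past an adjusted p of 0.05 in gastrocnemius; all 36 gastrocnemius points lie above 0, and every heart interval spans 0.

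The Oas family and other RNA effectors held 4 of the 5 members past the threshold: 6 of 7 had an unadjusted p below 0.05, with a median difference of 1.62. Oas1a, an enzyme whose oligoadenylate product switches on RNase L to degrade RNA, read 7.82, 6.38 and 6.86 in the WT arrays and 6.38, 7.05 and 6.96 in Cmah KO. It read 7.98, 9.001 and 9.06 in mdx and 7.90, 9.23 and 8.97 in Cmah KO mdx. Every dystrophin-deficient array lay above every dystrophin-positive one, although WT replicate 1 came close to the lowest deficient array. The difference was 1.78 ± 0.33 (SE), a fold of 3.43, with an adjusted p of 0.0365 in limma.

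Oas2, a longer enzyme of the same family, gave 6.86, 6.60 and 6.82 in WT, 6.73, 5.96 and 6.20 in Cmah KO, 7.50, 8.17 and 7.72 in mdx and 7.26, 7.93 and 7.39 in Cmah KO mdx. The groups with and without dystrophin did not overlap. Its difference was 1.13 ± 0.22 (limma, adjusted p = 0.0381).

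Oasl1 is an Oas-like protein without the enzyme activity that restrains translation of Irf7. Its values were 5.63, 5.42 and 5.01 in WT, 3.90, 4.99 and 4.69 in Cmah KO, 6.12, 7.30 and 6.88 in mdx and 5.51, 6.78 and 6.77 in Cmah KO mdx. Cmah KO mdx replicate 1 fell among the WT arrays, and the other 5 deficient arrays lay above all 6 positive ones. The difference was 1.62 ± 0.31 (limma, adjusted p = 0.0395).

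Oasl2, its enzymatically active neighbour on chromosome 5, was 7.72, 6.11 and 5.64 in WT, 6.45, 6.34 and 5.98 in Cmah KO, 7.89, 8.53 and 8.58 in mdx and 7.38, 8.81 and 8.50 in Cmah KO mdx. WT replicate 1 lay above Cmah KO mdx replicate 1, and no other arrays overlapped. The difference was 1.91 ± 0.37 (limma, adjusted p = 0.0395).

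Oas3, the third of the family, was 7.08, 4.04 and 3.84 in WT, 3.89, 4.58 and 4.30 in Cmah KO, 6.07, 6.84 and 8.44 in mdx and 4.91, 7.27 and 6.71 in Cmah KO mdx. WT replicate 1 was again high, above 4 of the 6 deficient arrays. Only 1 of the 6 positive arrays exceeded the filter level, against all 6 deficient ones, and the difference of 2.09 ± 0.62 did not pass (limma, adjusted p = 0.190). Isg20, an RNA exonuclease, differed by 0.50 ± 0.21, and Eif2ak2, the kinase that halts translation when it binds double-stranded RNA, by 0.47 ± 0.25; neither passed (limma, adjusted p = 0.419 and 0.620).

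Among membrane restriction factors, Rsad2, a radical SAM enzyme also called viperin that blocks viral replication, was 9.26, 7.97 and 9.27 in WT, 8.69, 8.38 and 7.88 in Cmah KO, 10.18, 10.31 and 10.30 in mdx and 9.19, 10.23 and 9.55 in Cmah KO mdx. All mdx arrays lay close together above every dystrophin-positive array, and Cmah KO mdx replicate 1 lay just below 2 of the WT arrays. The difference was 1.38 ± 0.28 (limma, adjusted p = 0.0482). A second, dimmer Rsad2 probe set gave 1.50 with an adjusted p of 0.0499. Bst2, which tethers budding virus to the cell surface, differed by 0.93 ± 0.48 (limma, adjusted p = 0.589).

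**Figure D2:**
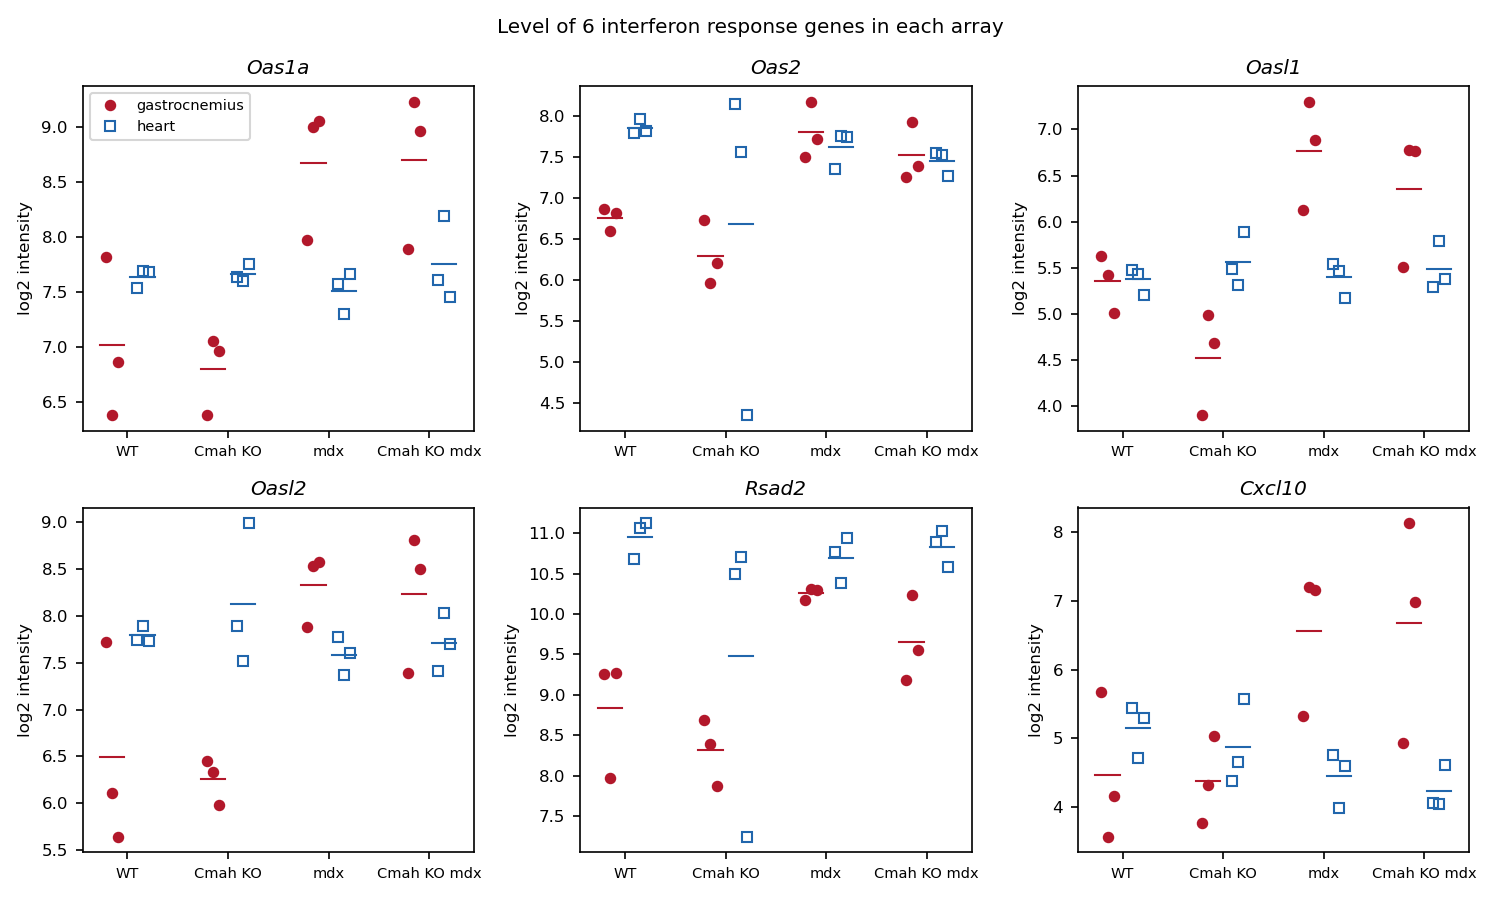
Log2 intensity of 6 members in each array, by genotype, in gastrocnemius (filled red) and heart (open blue); each point is 1 mouse and the bars are means of 3. Gastrocnemius points of mdx and Cmah KO mdx sit above most WT and Cmah KO points, heart points show no such step, and 1 Cmah KO heart array stands apart for Oas2, Oasl2 and Rsad2.

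The 5 calls rest on small groups. Leaving out any 1 of 8 gastrocnemius arrays (replicate 2 or 3 of any genotype) left 0 members past the threshold, and leaving out replicate 1 left 6 without the WT array, 1 without the Cmah KO array, 2 without the mdx array and 7 without the Cmah KO mdx array. Adjusted p reached 0.117 to 0.146 for these 5 genes in their weakest setting, while their differences stayed above 0 throughout, from 0.91 to 2.21.

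The single chemokine of the list, Cxcl10, which draws T cells and natural killer cells through the receptor Cxcr3, was 5.67, 3.58 and 4.16 in WT, 3.78, 4.33 and 5.04 in Cmah KO, 5.33, 7.20 and 7.15 in mdx and 4.93, 8.12 and 6.98 in Cmah KO mdx. The replicate 1 arrays of both deficient groups lay below WT replicate 1, and the other 4 deficient arrays lay above all positive ones. Only 2 of the 6 dystrophin-positive arrays exceeded the filter level of 4.66, against all 6 deficient ones, so the difference of 2.19 ± 0.57 is set against values mostly at background. It did not pass (limma, adjusted p = 0.123).

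Of the 3 Ifit genes, which bind viral RNA ends and stall its translation, 2 had an unadjusted p below 0.05 and none passed. Ifit1 was 8.13, 7.43 and 8.18 in WT, 7.86, 7.16 and 7.32 in Cmah KO, 9.02, 8.28 and 9.34 in mdx and 7.82, 8.80 and 8.31 in Cmah KO mdx. Ifit2 was 7.45, 6.01 and 6.48 in WT, 6.60, 6.00 and 6.17 in Cmah KO, 7.97, 7.69 and 7.89 in mdx and 6.86, 8.70 and 7.03 in Cmah KO mdx. In both genes all mdx arrays lay above all WT arrays, and the Cmah KO mdx arrays reached down into the WT range. Differences were 0.91 ± 0.27 for Ifit1 and 1.24 ± 0.35 for Ifit2 (limma, adjusted p = 0.174 and 0.155), and 0.83 ± 0.39 for Ifit3.

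The 4 sensors of nucleic acid had a median difference of 1.26, with 2 at an unadjusted p below 0.05 and none past the threshold. Zbp1, which detects nucleic acid in the left-handed Z form and can start cell death, differed by 1.76 ± 0.62. Ddx58, the receptor RIG-I for viral RNA ends, differed by 0.50 ± 0.19, Dhx58, its relative LGP2, by 1.33 ± 0.78, and Ifih1, the receptor MDA5 for long double-stranded RNA, by 1.18 ± 0.62. Dhx58 and Zbp1 spread widely within groups: Zbp1 ran from 3.27 to 6.92 in dystrophin-positive arrays and from 5.67 to 7.72 in deficient ones.

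The 4 transcription factors downstream of the receptor had a median difference of 0.60, and none passed. Irf9, which gives the complex with Stat2 its DNA contact, was 7.60 to 8.02 in dystrophin-positive arrays and 8.02 to 8.40 in deficient ones, without overlap but by a small margin, and differed by 0.46 ± 0.17 (limma, adjusted p = 0.337). Irf1, an early factor of the interferon-gamma response, differed by 0.48 ± 0.21 and Stat2 by 0.80 ± 0.50. Irf7, the amplifier of type I interferon production, differed by 0.71 ± 0.64, with deficient arrays from 5.23 to 8.20 and positive ones from 5.59 to 8.07.

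Among the GTPases, Mx1, which in mice blocks influenza virus in the nucleus and is defective in many laboratory strains, differed by 1.99 ± 0.59 (limma, adjusted p = 0.190). It ran from 4.59 to 7.48 in positive arrays and from 5.33 to 8.75 in deficient ones, so the ranges overlapped broadly. Igtp, a GTPase that acts on parasite vacuoles, differed by 0.73 ± 0.24, Gbp2 by 0.62 ± 0.30 and Gbp3 by 0.71 ± 0.35. Usp18, which strips Isg15 from proteins and dampens the receptor, differed by 1.02 ± 0.46.

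No antigen processing gene came near the threshold: of Psmb8 and Psmb9, subunits of the immunoproteasome, and Tap1, the peptide transporter, 0 of 3 had an unadjusted p below 0.05, at 0.71 ± 0.43, 0.03 ± 0.80 and 0.64 ± 0.52. Of the 7 remaining tested members 3 had an unadjusted p below 0.05 and 0 passed in limma. Parp14, an ADP-ribosyl transferase, was 8.76, 8.00 and 8.28 in WT, 8.11, 7.33 and 8.15 in Cmah KO, 9.16, 9.33 and 8.93 in mdx and 8.95, 9.54 and 8.62 in Cmah KO mdx. Only WT replicate 1 reached the deficient range, above Cmah KO mdx replicate 3. It differed by 0.98 ± 0.24 (limma, adjusted p = 0.0999). Rtp4 differed by 1.09 ± 0.35 and Trim30a, which restrains NF-kappa B signalling, by 0.74 ± 0.27. Ifi27l2a differed by 0.57 ± 0.31, Ifi35 by 0.45 ± 0.23, Xaf1, a promoter of apoptosis, by 0.62 ± 0.50 and Ifi203, a DNA-binding protein, by 0.04 ± 0.21.

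**Figure D3:**
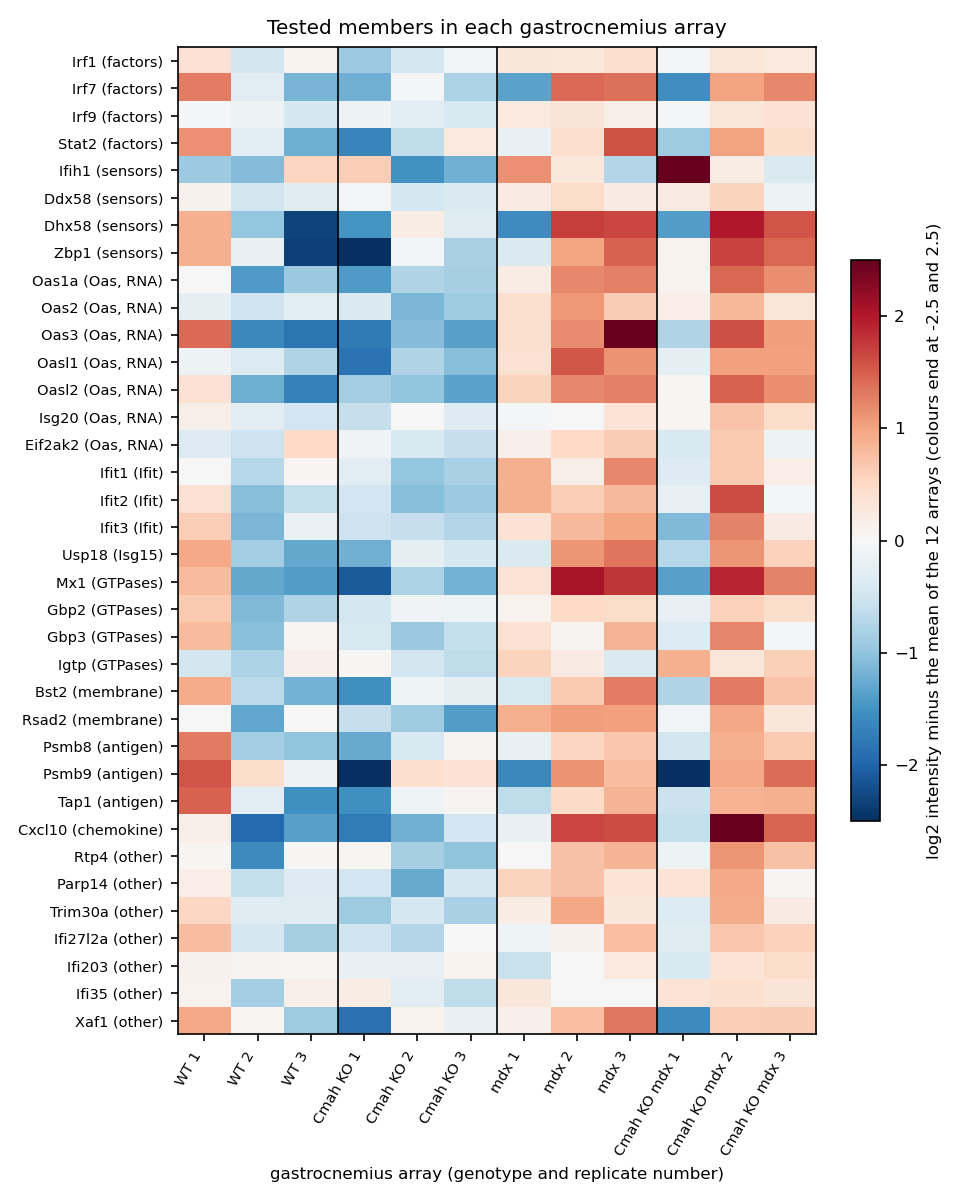
Each tested member (rows, with its role) in each gastrocnemius array (columns, by genotype and replicate), coloured by log2 intensity minus the mean of the 12 arrays, with colours ending at -2.5 and 2.5. The replicate 2 and 3 arrays of mdx and Cmah KO mdx are mostly red, and WT replicate 1 is redder than the other 5 dystrophin-positive arrays.

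Most members were higher without dystrophin on each Cmah background taken alone, though none passed with 3 arrays against 3. In mdx against WT, 0 members passed (0.0302% of all genes), 11 had an unadjusted p below 0.05, all higher (4.30% of all genes), and 34 of 36 were above 0, with a median of 0.74. That median was 1.18 without WT replicate 1 and 0.48 without WT replicate 2. In 10 members the 3 mdx arrays lay above all 3 WT arrays, against 4.45% of all genes. The lowest adjusted p was 0.691 in limma, for Oasl2 and Rsad2. In Cmah KO mdx against Cmah KO, 0 members passed (0.189% of all genes), 16 had an unadjusted p below 0.05 (9.62%), and all 36 were above 0, with a median of 0.93, which was 0.62 without Cmah KO mdx replicate 2. Here 16 members did not overlap, against 9.84% of all genes, and the lowest adjusted p was 0.175 in limma, for Oasl1.

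For Oas1a the difference was 1.66 on the Cmah-positive background and 1.90 on the Cmah KO background, and for Oas2 it was 1.04 and 1.23. Oasl1 gave 1.42 and 1.83, Oasl2 1.84 and 1.97, Rsad2 1.43 and 1.34, and Cxcl10 2.09 and 2.29. The difference between the backgrounds, tested as the interaction, passed for 0 members and 0% of all genes in limma, and had an unadjusted p below 0.05 for 0 members, against 0.870% of all genes. The smallest unadjusted p belonged to Isg20, with an interaction of 0.40 ± 0.41, to Ifi203, with 0.42 ± 0.43, and to Igtp, with 0.45 ± 0.48. Isg20 was 6.72, 6.31 and 6.10 in WT, 5.99, 6.59 and 6.25 in Cmah KO, 6.52, 6.57 and 6.92 in mdx and 6.62, 7.28 and 7.03 in Cmah KO mdx, so that only the Cmah KO and Cmah KO mdx arrays did not overlap. Ifi203 lay between 4.09 and 5.12 throughout.

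Loss of Cmah alone was not followed by a member change past the threshold. In Cmah KO against WT, 0 members and 0% of all genes passed in limma, and 0 members had an unadjusted p below 0.05, against 0.968% of all genes. The sign was uneven: 33 of 36 were lower in Cmah KO, with a median difference of -0.36, but leaving out 1 array at a time moved that median between -0.54, without WT replicate 2, and 0.05, without WT replicate 1. It was -0.24 without Cmah KO replicate 1. The smallest p belonged to Oasl1, at -0.82 ± 0.44, Trim30a, at -0.68 ± 0.38, and Irf1, at -0.48 ± 0.30. Trim30a was 10.16, 9.34 and 9.34 in WT and 8.75, 9.21 and 8.82 in Cmah KO, so the WT arrays lay above all 3 Cmah KO arrays, as they did for Oasl1. Irf1 was 8.45, 7.64 and 8.19 in WT and 7.18, 7.65 and 8.02 in Cmah KO, and its groups overlapped.

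In Cmah KO mdx against mdx, 0 members and 0% of all genes passed in limma, and 0 had an unadjusted p below 0.05, against 0.855% of all genes; 13 were higher and 23 lower, with a median of -0.10. That median turned to 0.04 without mdx replicate 3 and to 0.16 without Cmah KO mdx replicate 1, and was -0.50 without Cmah KO mdx replicate 2. Ifit1 differed by -0.57 ± 0.38 and Rsad2 by -0.61 ± 0.40. Igtp, at 9.70, 9.36 and 8.79 in mdx and 10.05, 9.46 and 9.75 in Cmah KO mdx, differed by 0.47 ± 0.34. In each of these 3 genes the groups overlapped. These comparisons share arrays with those on dystrophin, so their counts are not independent of each other.

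WT replicate 1 stood above its group. It was the highest of the 6 dystrophin-positive gastrocnemius arrays for 29 of 36 members (80.6%), against 18.8% of all genes, and exceeded the mean of the other WT arrays by a median of 1.24 over the members, against 0.11 over all genes. The median member level was 8.04 in that array, 6.57 and 6.86 in the other WT arrays, 6.65, 7.11 and 6.97 in Cmah KO, 7.60, 8.29 and 8.45 in mdx and 7.06, 8.44 and 8.19 in Cmah KO mdx. WT replicate 1 also had the highest summed intensity of all 12 arrays for general leukocyte (9869), T cell (2745) and neutrophil markers (3732). It was also highest for the 1 tested B cell marker (1368). Its macrophage marker sum of 16768 lay below every deficient array except Cmah KO mdx replicate 1 (16493). The heart array of the WT replicate 1 animal had a median member level of 7.92. That lay within the 7.74 to 8.28 of the hearts other than Cmah KO replicate 3. The part of those cells in its member levels was not tested.

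**Figure D4:**
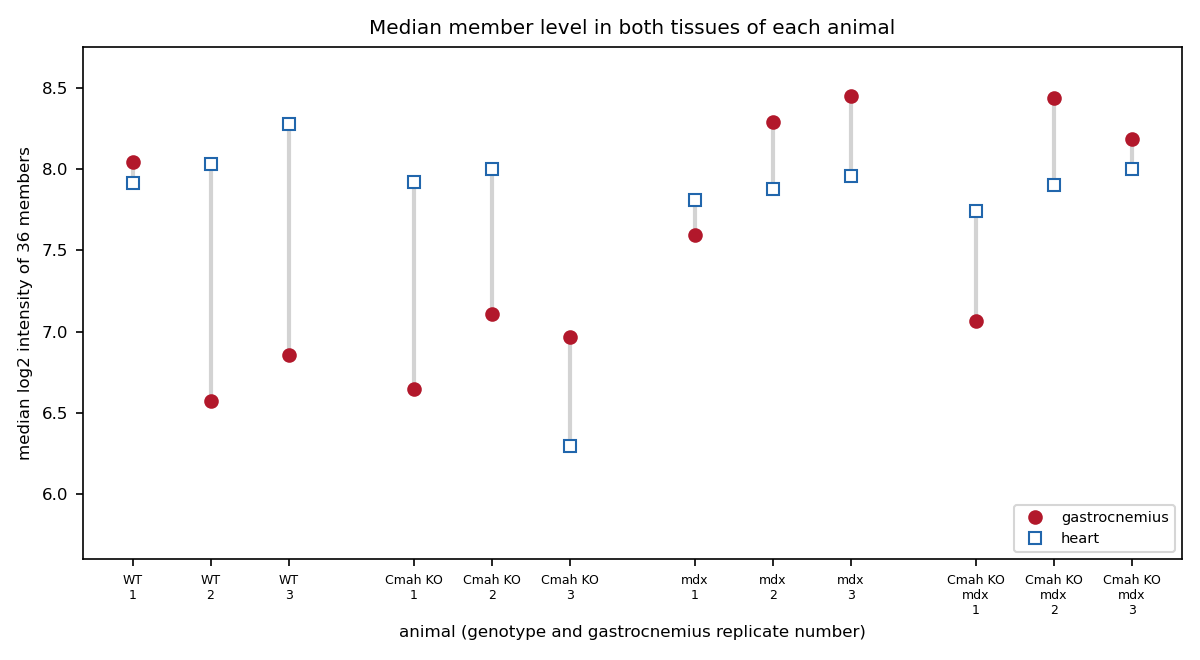
Median log2 intensity of the 36 tested members in gastrocnemius (filled red) and heart (open blue) of each of the 12 mice, labelled by genotype and gastrocnemius replicate. Hearts lie between 7.74 and 8.28 except 1 Cmah KO heart at 6.30, while gastrocnemius medians run from 6.57 to 8.45.

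Low-intensity animals, picked by the lowest upper-quartile intensity in each gastrocnemius genotype, had lower members in gastrocnemius. Against the other arrays of their genotype, 20 of 36 members were lower in all 4 genotypes and 2, Ifih1 and Igtp, were higher in all 4, with a median shift of -0.52. The largest shifts were in Psmb9, at -2.63, Dhx58, at -2.54, Zbp1, at -2.02, and Irf7, at -1.96, and Ifih1 was 2.00 higher. The same shifts were not computed over all genes, so these counts and values describe the members only. Within those animals, with 1 array per genotype, the dystrophin difference was above 0 in 30 of 36 members, with a median of 0.62. Within the other 8 arrays it was above 0 in all 36, with a median of 1.01. For the 5 members past the threshold it was 1.32 and 2.01 in Oas1a, 0.60 and 1.40 in Oas2, 1.36 and 1.75 in Oasl1, 1.59 and 2.07 in Oasl2 and 0.70 and 1.73 in Rsad2. With the low-intensity animals as a block 12 members passed, and without them 1 did, Oasl1. The share of all genes passing in these settings is not set beside them, so a change in the count describes the members only.

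Macrophage markers were also higher in the dystrophin-deficient gastrocnemius arrays, and 2 of them passed. All 13 tested of 14 listed were above 0 with dystrophin loss, 12 at an unadjusted p below 0.05, and those that passed in limma were Mpeg1, a pore-forming protein of phagocytes, at 3.02 (adjusted p = 0.0092), and Fcgr1, a receptor for antibodies, at 2.73 (adjusted p = 0.0471). Their summed intensity was 8018 to 16768 in WT, 7812 to 10287 in Cmah KO, 18759 to 26539 in mdx and 16493 to 35304 in Cmah KO mdx. The 4 general leukocyte markers summed to 1247 to 9869, 1684 to 3093, 4506 to 6476 and 3964 to 8659 in the same order. The 4 markers of regenerating fibres, which make embryonic myosins, summed to 509 to 1213, 343 to 986, 2577 to 5808 and 2494 to 6690, and 3 of them passed.

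No T cell or plasmacytoid dendritic cell marker passed the threshold. The 6 tested T cell markers summed to 198 to 276 in mdx and 190 to 256 in Cmah KO mdx. They summed to 155 to 2745 in WT and 157 to 678 in Cmah KO, and all 6 had a difference below 0. The high sums were those of WT replicate 1 (2745) and Cmah KO replicate 3 (678). The other dystrophin-positive arrays summed to 155 to 203, no higher than most deficient arrays. The 4 tested markers of plasmacytoid dendritic cells, which make much type I interferon, summed to 203 to 277 and 207 to 269 in the deficient groups, against 242 to 625 in WT and 231 to 382 in Cmah KO. Of 3 tested conventional dendritic cell markers, Itgax, an integrin that macrophages also carry, passed at 2.71 (limma, adjusted p = 0.0194), while Cd209a differed by 0.14 ± 0.55 and Zbtb46 by -0.44 ± 0.19. The median log2 level of these 3 was 6.50 to 8.30 in mdx and 7.02 to 8.76 in Cmah KO mdx, against 4.47 to 6.47 in WT and 4.31 to 5.57 in Cmah KO, without overlap, while their summed intensity overlapped, at 565 to 827, 613 to 930, 617 to 830 and 477 to 848 in the same order. All 4 tested neutrophil markers were above 0 and none passed, with a summed intensity of 392 to 989 in mdx and 368 to 1007 in Cmah KO mdx, against 142 to 3732 in WT and 91.7 to 274 in Cmah KO. Ncr1 of natural killer cells, Xcr1 of conventional dendritic cells and Cxcr2 of neutrophils lay below the filter on all 12 arrays. The part of macrophages, other leukocytes and regenerating fibres in the member differences was not tested.

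Other genes of the interferon pathway were taken from lists of 104 names, of which 90 were measured and 80 tested in gastrocnemius. With dystrophin loss 68 of the 80 had a difference above 0, with a median of 0.51, 27 had an unadjusted p below 0.05, all higher, beside 12.5% of all genes. The 1 of 80 that passed, a share close to the 1.20% of all genes, was Socs3, an inhibitor of receptor kinases that many cytokines induce. Socs3 was 6.54, 7.27 and 7.22 in WT, 8.01, 7.35 and 8.25 in Cmah KO, 10.64, 8.45 and 10.13 in mdx and 9.32, 9.09 and 9.99 in Cmah KO mdx, without overlap between arrays with and without dystrophin. It differed by 2.16 ± 0.36 (limma, adjusted p = 0.0220).

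Interferon ligands gave little signal: of 14 listed, 9 were measured and 2 tested, Ifna1 at -0.24 and Ifnz at -0.11, neither past the threshold. Ifnb1 lay between 2.53 and 3.86 and Ifng between 2.22 and 2.93 over the 12 gastrocnemius arrays, below the filter throughout, so their levels are not measured reliably here. Of 8 tested receptors and kinases 2 had an unadjusted p below 0.05, and Ifnar2 differed by 0.89 ± 0.22, Tyk2 by 0.49 ± 0.20, Ifngr1 by 0.46 ± 0.26 and Ifnar1 by 0.35 ± 0.23. The lowest adjusted p among them was 0.104 in limma, for Ifnar2.

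Of 14 further upstream sensors and adaptors 13 were above 0 and 6 had an unadjusted p below 0.05: Tlr7, an endosomal receptor for single-stranded RNA, differed by 1.96 ± 0.52, Myd88, its adaptor, by 1.30 ± 0.34, Tmem173, the DNA-pathway adaptor STING, by 1.38 ± 0.41, and Adar, an RNA editing enzyme, by 0.84 ± 0.24. None passed, and these 4 had adjusted p of 0.128 to 0.181 in limma. Of 50 further induced genes 47 were above 0, with a median of 0.54, 18 had an unadjusted p below 0.05 and 0 passed in limma; Ifi30 differed by 1.33 ± 0.36, Lgals3bp by 1.25 ± 0.39, Mlkl by 1.04 ± 0.30 and Irgm2 by 0.98 ± 0.29. Of the 6 inhibitors other than members, Ptpn6 differed by 0.89 ± 0.52, Pias1 by -0.37 ± 0.27 and Trim24 by -0.30 ± 0.27.

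In heart, no comparison of genotypes gave a member past the threshold. In mdx against WT, 0 members and 0% of all genes passed in limma, and 0 had an unadjusted p below 0.05, against 0.458% of all genes; 31 of 36 were lower in mdx, with a median of -0.21. That median was -0.10 without mdx replicate 2; within the low-intensity animals it was -0.56 with 4 of 36 above 0, and within the others -0.05 with 11 of 36 above 0. In Cmah KO mdx against Cmah KO, 0 members and 0% of genes passed and 0 had an unadjusted p below 0.05, against 1.69% of all genes; 29 of 36 were above 0, with a median of 0.47 against 0.31 for all genes. Over both backgrounds, 0 members and 0% of genes passed and 0 had an unadjusted p below 0.05, against 0.931% of all genes; 27 of 36 were above 0, with a median of 0.15 against 0.17 for all genes.

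The positive signs in heart changed when 2 arrays were left out. Without Cmah KO replicate 3 and Cmah KO mdx replicate 2, the arrays with deviating Gapdh controls, 16 of 36 members were above 0 in Cmah KO mdx against Cmah KO, with a median of -0.04, and 7 of 36 over both backgrounds, with a median of -0.10. In mdx against WT, 1 member then had an unadjusted p below 0.05 in limma, and 0 members and 0 of 29421 probe sets passed. The share of all genes at that unadjusted p is not given for this setting, so the 1 member is a description. Leaving out Cmah KO replicate 3 alone also gave a median of -0.10 over both backgrounds. Within the low-intensity animals 3 of 36 members were above 0 over both backgrounds, with a median of -0.33, and within the other arrays 28 of 36, with a median of 0.36. Cmah KO replicate 3 was the lowest of the 12 hearts for 24 of 36 members (66.7%), against 54.7% of all genes.

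Oas1a in heart was 7.54, 7.69 and 7.68 in WT, 7.63, 7.61 and 7.75 in Cmah KO, 7.58, 7.30 and 7.66 in mdx and 7.61, 8.19 and 7.45 in Cmah KO mdx, a narrow range with overlap of all groups, and its dystrophin difference was -0.02 ± 0.26. Oas2 was 7.79, 7.96 and 7.81 in WT, 8.15, 7.56 and 4.35 in Cmah KO, 7.35, 7.75 and 7.74 in mdx and 7.55, 7.52 and 7.27 in Cmah KO mdx. The value of 4.35 belongs to the Cmah KO array with the deviating Gapdh control, and over the 10 other hearts Oas2 ran from 7.27 to 8.15. Oasl1 stayed between 5.17 and 5.89, with a difference of -0.03 ± 0.26, and Oasl2 between 7.37 and 8.99, with a difference of -0.31 ± 0.31. The 8.99 also belongs to a heart of deviating Gapdh control, and over the 10 other hearts Oasl2 ran from 7.37 to 7.89.

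Rsad2 was 10.68, 11.07 and 11.13 in WT, 10.49, 10.71 and 7.24 in Cmah KO, 10.77, 10.38 and 10.95 in mdx and 10.90, 11.02 and 10.58 in Cmah KO mdx. Apart from the array with the deviating control these levels lay between 10.38 and 11.13, and the dystrophin difference was 0.55 ± 0.52. Cxcl10 had the smallest p over both backgrounds: it was 5.44, 4.72 and 5.30 in WT, 4.38, 4.66 and 5.58 in Cmah KO, 4.77, 4.00 and 4.60 in mdx and 4.07, 4.05 and 4.62 in Cmah KO mdx. Only 3 of the 12 hearts, all dystrophin-positive, exceeded the filter level of 4.78, so its difference of -0.66 ± 0.32 lies near background. It did not pass (limma, unadjusted p = 0.0591, adjusted p = 1.00).

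The members with the next smallest p in heart were also short of any threshold. Mx1 was 7.00, 7.61 and 6.28 in WT and 6.12, 5.41 and 6.74 in mdx, overlapping, and differed by -0.87 ± 0.52. Isg20 differed by 0.37 ± 0.30 over both backgrounds. Rtp4 was 8.33, 8.20 and 6.42 in Cmah KO and 8.34, 9.33 and 8.53 in Cmah KO mdx, where all 3 deficient arrays lay above the Cmah KO arrays by a small margin or more, and differed by 1.08 ± 0.53. Ifi35 was 11.36, 10.49 and 8.60 in Cmah KO and 11.23, 11.52 and 11.33 in Cmah KO mdx, and differed by 1.21 ± 0.62. In both genes the lowest value was that of Cmah KO replicate 3.

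Loss of Cmah in heart gave 0 members and 0% of genes past the threshold in limma, and 0 members at an unadjusted p below 0.05, against 0.916% of all genes. Here 32 of 36 were lower in Cmah KO than in WT, with a median of -0.79 against -0.43 for all genes, and without the arrays of deviating control the median was -0.22. Xaf1 was 9.42, 8.61 and 9.29 in WT and 7.91, 9.27 and 5.02 in Cmah KO, and differed by -1.71 ± 0.82, with the lowest value again in Cmah KO replicate 3. Rsad2 differed by -1.48 ± 0.74, and Gbp3, at 8.14, 9.02 and 8.41 in WT and 8.00, 7.92 and 6.20 in Cmah KO, by -1.16 ± 0.59. For Gbp3 all WT arrays lay above all Cmah KO arrays.

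In Cmah KO mdx against mdx hearts, 0 members and 0% of genes passed in limma, 0 members had an unadjusted p below 0.05, against 0.992% of all genes, and 18 of 36 were higher, with a median of 0.02, which was -0.11 without mdx replicate 2 and 0.12 without Cmah KO mdx replicate 1. Stat2 was 7.00, 6.74 and 6.75 in mdx and 5.47, 4.97 and 7.35 in Cmah KO mdx, overlapping, and differed by -0.90 ± 0.70. Ifi203 differed by 0.50 ± 0.40 and Eif2ak2 by -0.50 ± 0.43, both without overlap of the groups. The interaction in heart passed for 0 members and 0% of genes in limma, and had an unadjusted p below 0.05 for 0 members, against 0.374% of all genes. Its median over the members was 0.72, against 0.19 over all probe sets. Without the arrays of deviating control these medians were 0.16 and -0.04. Gbp3 had the smallest p there, with 1.70 ± 0.83, followed by Rtp4 with 1.36 ± 0.75 and Ifit3 with 1.21 ± 0.76.

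Heart and gastrocnemius differed in the level of 7 members. With animal as a random block over all 24 arrays, 5 members were higher in heart and 2 lower past an adjusted p of 0.05 in limma, 7 of 36, where 31.1% of 13684 genes passed in either direction; the members' share was below that background. Rsad2 had a lowest, median and highest level of 7.88, 9.27 and 10.31 in gastrocnemius and 7.24, 10.74 and 11.13 in heart, was higher in heart in 11 of 12 animals, and differed by 1.23 ± 0.27 (limma, adjusted p = 0.0014). Ifit2 had 6.00, 6.94 and 8.70 in gastrocnemius and 6.43, 8.46 and 8.77 in heart, was higher in heart in 11 of 12 animals, and differed by 1.22 ± 0.24. For Rsad2 the tissues overlapped only through the Cmah KO heart of deviating control, and for Ifit2 also through 1 gastrocnemius array, Cmah KO mdx replicate 2.

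Isg20 had 5.99, 6.58 and 7.28 in gastrocnemius and 6.63, 7.42 and 8.12 in heart, and Eif2ak2 had 6.77, 7.26 and 8.01 and then 7.01, 8.30 and 8.81. Both were higher in heart in 12 of 12 animals, by 0.83 ± 0.15 and 0.82 ± 0.17. Gbp3, with medians of 7.10 and 8.07, was higher in heart in 10 of 12 animals, by 0.94 ± 0.25. Oas3 was lower in heart, with 3.84, 5.49 and 8.44 in gastrocnemius and 3.11, 4.36 and 5.80 in heart, in 9 of 12 animals, by -1.16 ± 0.35 (limma, adjusted p = 0.0154), although only 5 of 12 hearts exceeded the filter level for Oas3. Cxcl10, with medians of 5.19 and 4.64, was lower in heart in 7 of 12 animals, by -0.84 ± 0.29 (limma, adjusted p = 0.0349), with 3 of 12 hearts above the filter level. For these 2 genes most of the high gastrocnemius values belong to dystrophin-deficient mice. Without the 2 heart arrays of deviating control, 15 members passed, the same 7 with Irf9, Oas2, Ifit1, Gbp2, Parp14, Trim30a, Ifi203 and Xaf1. In that setting 15721 of 31070 probe sets passed, against 8736 with all arrays, and the members' share stayed below that of all probe sets.

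The response to dystrophin loss itself differed between the tissues. Tested as the difference in heart minus that in gastrocnemius, 34 of 36 members were below 0, with a median of -0.74 against 0.14 for all genes. Of the 36, 4 passed in limma, where 0.848% of all genes passed. Cxcl10 gave -2.86 ± 0.58 (limma, adjusted p = 0.0240), from 2.19 in gastrocnemius and -0.66 in heart, where 2 of 6 dystrophin-positive gastrocnemius arrays and 3 of 12 hearts exceeded the filter level, so most of the values behind it are near background. Oasl2 gave -2.22 ± 0.44 (limma, adjusted p = 0.0179), Oas1a -1.80 ± 0.37 (limma, adjusted p = 0.0258) and Oasl1 -1.65 ± 0.36 (limma, adjusted p = 0.0393). The gastrocnemius arrays here are those of the comparisons above, so the 2 results are not independent.

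Next in order and short of the threshold were Mx1, at -2.48 ± 0.64, Oas3, at -2.30 ± 0.69, Zbp1, at -1.73 ± 0.64, and Ifit2, at -1.06 ± 0.47. Without the 2 heart arrays of deviating control all 36 members were below 0, with a median of -1.07, and 9 passed: the same 4 with Oas2 at -1.48, Ifit2 at -1.43, Mx1 at -2.62, Rsad2 at -1.40 and Parp14 at -1.17. In that setting 1010 of 31070 probe sets passed, against 149 with all arrays. After quantile normalization 1 member passed, Cxcl10, and without the block for animal 0 members did. Leaving out 1 animal gave 0 to 5, with 0 when the animal of gastrocnemius WT replicate 2 or 3, mdx replicate 2 or 3, or Cmah KO mdx replicate 2 was left out, and 1 without that of Cmah KO replicate 1 or Cmah KO mdx replicate 3.

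Macrophage markers in heart, by contrast with gastrocnemius, summed to 11201 to 17823 in WT, 5342 to 11889 in Cmah KO, 11418 to 13926 in mdx and 10779 to 13455 in Cmah KO mdx, with no step at the loss of dystrophin. The 80 other pathway genes tested in heart had 57 above 0 over both backgrounds, with a median of 0.18, 0 called and 0 at an unadjusted p below 0.05 in limma. Whether the tissues' unequal macrophage marker levels have a part in the unequal response was not tested.

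Position and promoter letters were set beside the gastrocnemius differences as a description. Neighbouring members with no coding gene between them were Oas2 and Oas3, Oasl1 and Oasl2, Ifit2 and Ifit3, and the run Psmb8, Tap1 and Psmb9. Oasl1 and Oasl2 both passed, while Psmb8, Tap1 and Psmb9 did not, at 0.71, 0.64 and 0.03. The 16 tested members with an ISRE core in their promoter window had a median difference of 0.82, from 0.04 in Ifi203 to 2.19 in Cxcl10. The 12 with a window and no match had a median of 0.63, from 0.03 in Psmb9 to 1.91 in Oasl2. Both ranges span small and large differences: Oasl1 and Oasl2, shown above without a match, differed by 1.62 and 1.91, and Oas1a, with 2 matches, by 1.78.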

How the data were processed

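Gene expression was measured on Affymetrix mouse genome arrays. The authors deposited 1 linear intensity per probe set and array, made with GCOS and RMA per the submitters' processing notes, whose versions are not given in the sources used here. RMA normalizes arrays together, so a true shift shared by all genes cannot be told from the processing. The deposited arrays still differed as wholes, with upper-quartile intensities from 107 to 264. In heart, the median difference of Cmah KO against WT over all probe sets was -0.37, and -0.23 after quantile normalization. Of 45101 probe sets, 64 controls were left out. Values were taken as log2, and a probe set was tested where at least 3 of 12 arrays of the tissue exceeded its 40th percentile (4.66 in gastrocnemius, 4.78 in heart). Gene symbols came from the platform annotation.

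Each tissue was fitted with limma 3.58.1 in R 4.3.3 as 4 group means, with Benjamini-Hochberg adjustment over all probe sets tested and a threshold of 0.05. Tissues were compared over 24 arrays with animal as a random block (consensus correlation 0.22). Each animal is a separate mouse per the labels. The number of arrays limits the precision. The gastrocnemius fit was tested on simulated data with known changes and independent noise, without deviating arrays. The heart fit and the fit over both tissues were not simulated.

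Members and lists were chosen with earlier results of these data known. Every member is accounted for, and per-array values are given for members past the threshold and those with the smallest p in a comparison. Alternatives were the filter, quantile normalization, an added 32 before the logarithm, array weights, a replicate block, and leaving out each array. Those using the low-intensity animals were chosen after seeing the data.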

Additional observations from a re-analysis of the deposited data

Results flagged for a closer look

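The dystrophin difference in heart minus that in gastrocnemius passed the test of the difference itself (limma, 12 arrays per tissue) for 4 members. Cxcl10 gave -2.86, Oasl2 -2.22, Oas1a -1.80 and Oasl1 -1.65 on the log2 scale. In each, the gastrocnemius difference was above 0 and the heart difference below 0, although none of the heart differences passed. For Oas1a and Oasl1 the heart difference was only -0.02 and -0.03, and for Oasl2 it was -0.31 ± 0.31. The highest Oasl2 heart value came from an array of deviating Gapdh control. Cxcl10 was above the filter level in 3 of 12 hearts, all dystrophin-positive, and in gastrocnemius in 2 of 6 dystrophin-positive arrays and all 6 deficient ones, so most of the values behind its difference are near background.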

How the results depend on the processing

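Precision was limited by 3 arrays per group and by a strain label that goes with dystrophin loss. Of the counts of members past the threshold, 251 recomputed values stayed within 1.5 times the main count and 31 did not. Most of these counts were 0 in the main fit, so the 251 are largely values of 0 that stayed 0. The counts above 0, which were 5, 7 and 4, ran from 0 to 19, 6 to 15 and 0 to 9 over the recomputed fits. The cause of the moves was not tested. In gastrocnemius over both backgrounds the main count was 5. It was 2 with no filter, 8 with array weights, 12 with low-intensity animals as a block, 1 without the 4 low-intensity animals, 19 with that block and without WT animal 1, and 0 to 7 when leaving out 1 array. A block found from the arrays themselves can make counts too high. With the replicate block 1 member, Oasl1, passed. After group means were taken out, same-numbered gastrocnemius arrays correlated between -0.58 and 0.61, with a median of 0.18. Arrays of different number had a median of -0.09. Replicate 1 is the low-intensity animal in every genotype but WT, so the number partly follows that set. These correlations do not settle whether the numbers pair the mice. In Cmah KO mdx against Cmah KO the main count of 0 became 5 with array weights, 3 with low-intensity animals as a block and 4 with that block and without WT animal 1. For these gastrocnemius settings the calls over all genes are not set beside the counts. A rise can therefore not be read as particular to the members. The count between tissues, 7, was 15 without the heart arrays of deviating Gapdh control and 6 to 13 when leaving out 1 animal. Without those heart arrays the probe sets called between tissues also rose, from 8736 to 15721 of 31070. The count for the tissue difference in the dystrophin response, 4, was 1 after quantile normalization, 9 without those heart arrays, 0 with no block for animal and 0 to 5 when leaving out 1 animal. Among single members, the heart interaction of Ifit3 reversed to -0.19 with array weights (limma, adjusted p = 1.00), from 1.21. In all, 1200 values kept direction and side of the threshold, 106 lost the call and 24 gained one. Most of the 1200 belong to members not called in the main fit. The 5 gastrocnemius calls were each kept in 10 to 12 of 23 settings. The 4 calls for the tissue difference in the dystrophin response were kept in 9 to 12 of 19 or 20.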

Other observations

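Second probe sets of a member did not always give the same dystrophin difference in gastrocnemius. For Psmb8, an immunoproteasome subunit, the brightest probe set gave 0.71 and the dimmer one -0.21. For Rtp4 they gave 1.09 and 0.38, for Gbp2 0.62 and 0.18, and for Zbp1 1.76 and 1.15. Ddx58 had 3 tested probe sets, at 0.50, 0.98 and 0.00 from the brightest to the dimmest. None of these probe sets passed an adjusted p of 0.05 in limma. Xaf1 had a dimmer probe set whose values split the animals. In gastrocnemius it read 7.43 to 7.88 in 5 arrays, WT replicate 3, Cmah KO replicate 1 and all 3 Cmah KO mdx, and 2.34 to 3.31 in the other 7. The hearts of the same 5 animals read 7.20 to 8.77 and the other 7 hearts 3.10 to 4.07. Its differences in gastrocnemius were -1.63 for mdx minus WT and 3.26 for Cmah KO mdx minus Cmah KO, where the brightest probe set gave 0.70 and 0.54. In heart they were -2.17 and 2.59, where the brightest gave -0.04 and 1.03. This split was seen after the values were examined and was not tested.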
